A study of Mus musculus with 9 samples.

Results

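Proteasome genes were taken as all genes whose symbol begins with Psma to Psmg followed by a digit, which gave 50 of the 24318 genes listed in each of the 2 deposited expression tables. By known role they comprise 15 subunits of the 20S core, 4 tissue-restricted catalytic subunits of the 20S core, 17 subunits of the 19S cap, 7 assembly chaperones, 6 activators or inhibitors of the 20S core, and Psmc3ip, a meiotic recombination cofactor that carries the name but is not a subunit. The study asked how depletion of EXOSC3, a structural subunit of the RNA exosome that degrades and trims RNA, and of DDX1, a DEAD-box RNA helicase, changes the RNA of N2A cells, a mouse neuroblastoma line. N2A cells were transfected with a scramble control siRNA, with EXOSC3 siRNA (siEXOSC3) or with DDX1 siRNA (siDDX1), with 3 libraries per condition and 9 in all. All 3 groups share the cell line and the transfection. The libraries of a group came from separately seeded plates of 1 line, so the spread between them is that of cultures.

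The proteasome is the protease that removes most ubiquitin-tagged proteins from the cytosol and nucleus. Its 20S core is a barrel of stacked alpha and beta rings with the active sites inside, and the 19S cap recognizes tagged proteins, removes the ubiquitin, unfolds the protein with a ring of ATPases and feeds it into the core. Because core and cap are built from many different subunits in fixed proportions, their genes are known to be expressed together, partly through the transcription factor NRF1 (Nfe2l1), which binds an antioxidant response element (ARE) upstream of many of them.

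Expression was measured by RNA-seq of rRNA-depleted RNA and given as FPKM, the fragments counted for a gene scaled for its length and for library size. The reads behind each value are unknown. Each knockdown was compared with the scramble columns of its own table on the log2(FPKM + 1) scale with limma, over 11242 genes for siEXOSC3 and 11104 for siDDX1 whose mean was at least 1 FPKM, and a change was called at a Benjamini-Hochberg adjusted p under 0.05. With 3 libraries against 3, an exact permutation test of a single gene cannot fall below 0.1. In all, 10 of 12 N2A and neuronal markers reached 1 FPKM. Summed markers of fibroblasts, glia, immune and endothelial cells did not exceed 9.19 FPKM in any library. Exosc3 was at 15.5% ± 1.90 (SD, n = 3) of scramble in siEXOSC3 and Ddx1 at 24.4% ± 2.99 in siDDX1. The third siDDX1 library stood apart from the other two in the summed FPKM over all genes (738926 against 848242 and 893687). The scramble libraries of that table summed to between 692933 and 745839 FPKM, so the first and second siDDX1 libraries lay above that range and the third within it.

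Of the 50 genes, 47 were tested in each table. The testis-restricted alpha subunit Psma8 and the activator copy Psme2b were listed at 0 in every library, and the thymus-restricted Psmb11 did not exceed 0.0235 FPKM. In scramble cells the core was more abundant per unit length than the cap. The median level was 212 FPKM for the 14 tested 20S core subunits (98.4 to 424), 125 FPKM for the 17 cap subunits (55.3 to 251) and 40.3 FPKM for the 7 assembly chaperones (14.0 to 65.5). The highest were the alpha subunit Psma6 at 424 ± 19.1 FPKM (SD, n = 3), the beta subunits Psmb3 at 371 ± 16.9 and Psmb7 at 369 ± 20.9, and the alpha subunit Psma7 at 326 ± 12.2. The libraries of Psma6 lay above those of Psmb3, while Psmb3 and Psmb7 overlapped. Along the whole order of 47 genes, 19 neighbours were separated in every scramble library range. Among the 14 constitutive core subunits tested, the lowest level was that of Psmb5, the chymotrypsin-like active site, at 98.4 ± 7.76 FPKM.

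**Figure D1:**
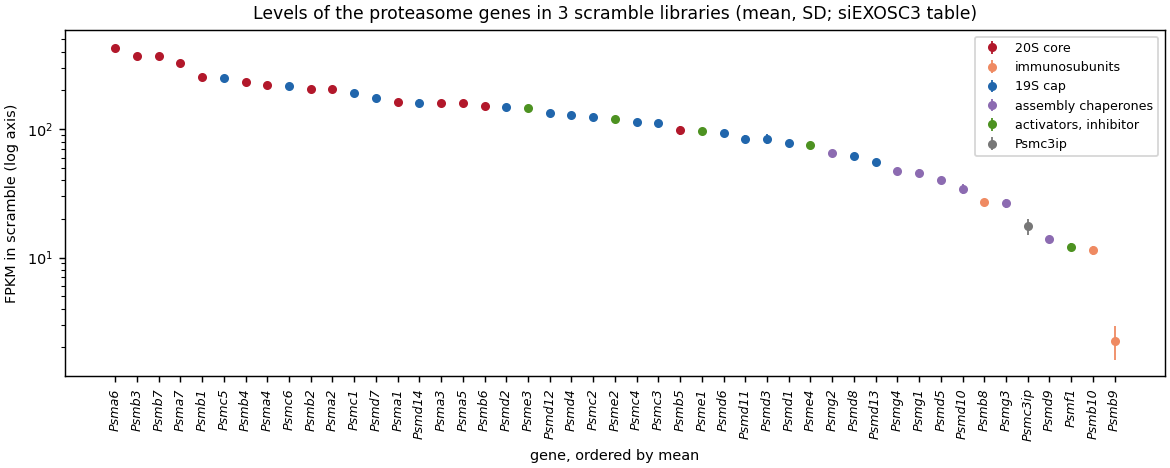
Level of each tested proteasome gene in scramble cells, as mean FPKM of 3 libraries with the SD as a bar, on a log axis and ordered by mean, coloured by class. Core subunits fill the 5 highest places, with Psma6 at 424 FPKM, and the immunosubunit Psmb9 is lowest at 2.25 FPKM.

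The immunoproteasome carries 3 alternative active-site subunits, Psmb8, Psmb9 and Psmb10, which replace Psmb5, Psmb6 and Psmb7. In scramble cells Psmb8 was 27.4% ± 1.81 (SD, n = 3) of Psmb5, Psmb9 was 1.51% ± 0.485 of Psmb6, and Psmb10 was 3.08% ± 0.332 of Psmb7. In each pair the constitutive subunit had the higher RNA level in every scramble library.

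The sequences before the transcription starts are shown for Psmd1 and Psmd5, since these were the only members called in both knockdowns, and for sites that match the ARE letters. Upstream sequences (250 bases, RefSeq, GRCm38.p6) were given for 42 of the 50 genes, as 45 promoters. In the following, 5′ to 3′ on the gene strand, capitals mark the GC box letters GGGCGG on either strand, a motif bound by SP1-family factors. Psmd1 lies on the plus strand at chr1:86064369-86064618 and Psmd5 on the minus strand at chr2:34870963-34871212.
Psmd1: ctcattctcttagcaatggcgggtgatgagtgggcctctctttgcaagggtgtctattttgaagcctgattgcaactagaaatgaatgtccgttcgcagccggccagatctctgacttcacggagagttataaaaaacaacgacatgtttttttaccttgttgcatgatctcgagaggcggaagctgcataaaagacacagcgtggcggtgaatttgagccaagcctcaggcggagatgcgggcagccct
Psmd5: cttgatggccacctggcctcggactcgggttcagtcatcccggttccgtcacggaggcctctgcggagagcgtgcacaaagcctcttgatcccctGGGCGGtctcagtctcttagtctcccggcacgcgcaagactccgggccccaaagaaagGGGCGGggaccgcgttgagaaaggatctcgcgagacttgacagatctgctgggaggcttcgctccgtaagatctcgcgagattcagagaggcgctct
The Psmd5 sequence held 2 GC boxes and the Psmd1 sequence none. Neither held the ARE letters TGACNNNGC, the CCAAT box or the cyclic AMP response element TGACGTCA on either strand.

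The ARE letters were found in 5 of the 45 promoters (11.1%), those of the catalytic beta subunits Psmb5 and Psmb6, the ATPase Psmc6, the lid subunit Psmd12 and the base chaperone Psmd9, against 10.2% of all 32851 mouse promoters of this length. The stretches around 3 of them follow with the motif in capitals, Psmb5 from the window chr14:54617996-54618245 on the minus strand, Psmb6 from chr11:70525107-70525356 and Psmd9 from chr5:123227940-123228189 on the plus strand.
Psmb5: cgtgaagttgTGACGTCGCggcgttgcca
Psmb6: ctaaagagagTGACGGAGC
Psmd9: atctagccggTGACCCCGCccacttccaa
CCAAT was in 15 of 45 (33.3%, against 33.8% of all promoters), GGGCGG in 23 of 45 (51.1% against 32.7%) and TGACGTCA in 0 of 45 (against 1.55%). Where the motifs overlap (the ARE of Psmd9 runs into a GC box) each was counted.

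Depletion of EXOSC3 was accompanied by lower levels of 12 proteasome genes and a higher level of 1. The 12 were 25.5% of the 47 tested, and 15.7% of all genes tested were called lower in this comparison. The single rise, 2.13% of the members, stood against 16.7% of all genes called higher, and 32.4% were called in either direction. Of the 47 fold changes, 39 were negative and the median was −0.16 (−0.10 without siEXOSC3 replicate 3), against −0.01 over all genes. The 3 siEXOSC3 libraries did not overlap scramble for 21 members below and 1 above, where 25.9% and 23.8% of all genes were separated in those directions. The changes were small, between −0.48 and 0.34 on the log2 scale. The number called depended on single libraries. It was 1 without scramble replicate 1 and 0 without scramble replicate 3 (15 members were lower at an unadjusted p under 0.05 in limma, and no other tool was run), 5 without scramble replicate 2, 3 without siEXOSC3 replicate 1, and 19 without siEXOSC3 replicate 2. The share of all genes called lower moved too, to 5.17%, 7.15%, 8.27%, 7.73% and 22.3% in these fits, in that order. With 1 library left out, between 34 and 41 of the 47 fold changes were negative. The summed N2A and neuronal markers were at 1056 to 1101 FPKM in siEXOSC3 against 815 to 849 in scramble, and the 4 endothelial markers at 6.24 to 9.19 FPKM against 4.11 to 4.75, with the endothelial receptor Kdr listed at 0. Their part in these results was not tested, and in bulk RNA fewer cells of a type and less RNA per cell cannot be told apart.

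**Figure D2:**
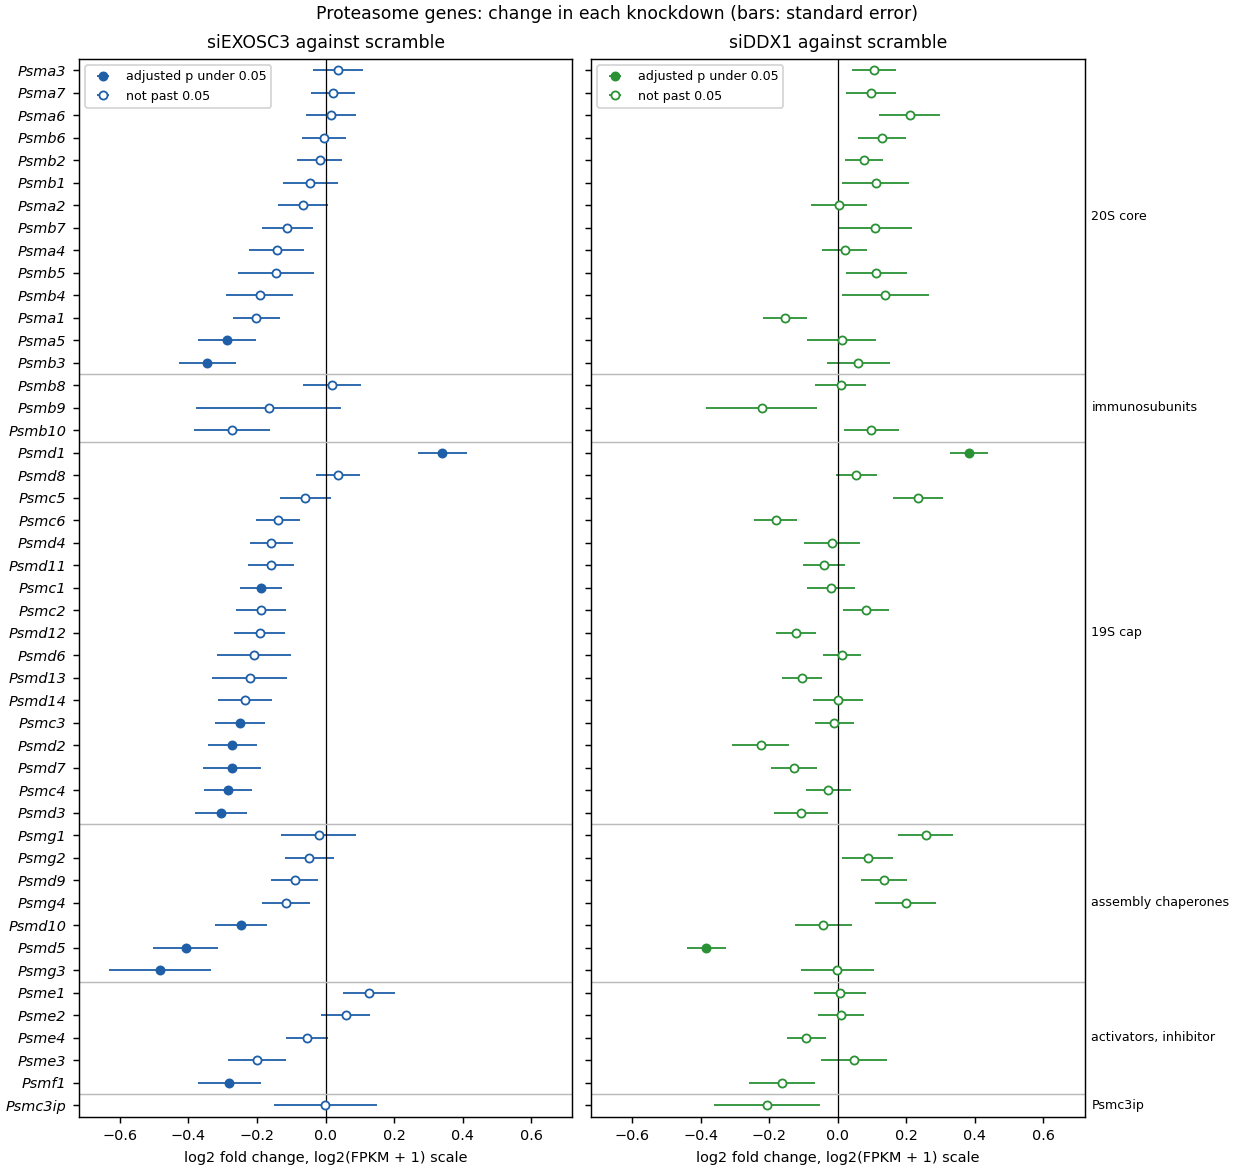
Log2 fold change of each tested proteasome gene (knockdown against scramble, log2(FPKM + 1) scale) with its standard error, siEXOSC3 in blue and siDDX1 in green, grouped by class and ordered by the siEXOSC3 value. Filled points passed an adjusted p of 0.05 and open points did not: 13 are filled for siEXOSC3 and 2 for siDDX1, and Psmd1 and Psmd5 are filled in both.

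The 19S cap was the class with the most calls by number in siEXOSC3. Of its 17 subunits 6 fell (35.3%, against 15.7% of all genes) and 1 rose (5.88% against 16.7%), 13 were separated from scramble below (25.9% of all genes were), and the median was −0.19. In the lid, which holds the deubiquitinase, Psmd3 measured 79.6, 79.7 and 93.1 FPKM in scramble and 69.4, 66.4 and 67.5 FPKM in siEXOSC3, and the lid subunit Psmd7 measured 180, 167 and 180 FPKM in scramble and 136, 163 and 137 FPKM in siEXOSC3. All siEXOSC3 libraries of both genes were below all scramble libraries, although the second siEXOSC3 library of Psmd7 came within 5 FPKM of the lowest control. Their log2 fold changes were −0.30 (SE 0.08, limma adjusted p = 0.0187) and −0.27 (SE 0.08, adjusted p = 0.0379). The deubiquitinase itself, Psmd14, missed the threshold at −0.23 (limma adjusted p = 0.0518) and passed it with quantile normalization and without siEXOSC3 replicate 2.

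The 6 ATPases form the ring that unfolds substrates. All had negative values in siEXOSC3 (−0.28 to −0.06), as did 5840 of all 11242 genes, and 3 of them, Psmc4, Psmc3 and Psmc1, fell (50%, against 15.7% of all genes). Psmc4 measured 118, 107 and 114 FPKM in scramble and 90.8, 98.8 and 88.0 FPKM in siEXOSC3, a separation with a log2 fold change of −0.28 (SE 0.07, limma adjusted p = 0.0181). Psmc3 fell to 84.1% and Psmc1 to 87.7% of scramble (adjusted p = 0.0333 and 0.0454 in limma). With 1 of the 6 libraries left out in turn, the calls of Psmc3, Psmc1, Psmd7 and Psmf1 were each lost in 5 fits, those of Psma5, Psmc4 and Psmd2 in 3, and those of Psmb3 and Psmd3 in 2. Psmc5 overlapped scramble and stood at 96.0%.

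The base also holds Psmd1 and Psmd2, the pair of large scaffold subunits that receive ubiquitin receptors, and these went in opposite directions. Psmd1 measured 79.0, 74.2 and 79.9 FPKM in scramble and 97.7, 106 and 92.6 FPKM in siEXOSC3, and Psmd2 measured 152, 139 and 154 FPKM in scramble and 125, 128 and 115 FPKM in siEXOSC3. Neither gene overlapped between the groups. Psmd1 rose to 127% ± 8.80 of scramble (log2 fold change 0.34, SE 0.07, limma adjusted p = 0.00990) and Psmd2 fell to 82.7% ± 4.46 (−0.27, adjusted p = 0.0214). Psmd1 was 52.4% ± 0.783 of Psmd2 in scramble and 80.5% ± 2.25 in siEXOSC3.

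Psmd1 was the only proteasome gene called higher, and its call was kept in every alternative run (adjusted p no higher than 0.0437 in limma). It spans chr1:87960962-88059363 on the plus strand of NCBIM37 (mm9), where Armc9 on the same strand, Htr2b on the other strand and the small RNA SNORA26 overlap it. The library kit did not mark strand, so reads shared with Htr2b could not be assigned by strand. Armc9 and SNORA26 lie on the strand of Psmd1, so strand could not separate reads shared with them in any case. Armc9 went the other way, from 8.62 ± 0.119 FPKM (SD, n = 3) in scramble to 6.30 ± 0.714 in siEXOSC3 (log2 fold change −0.40, limma adjusted p = 0.0126), and Htr2b was not called.

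Assembly chaperones hold partly built core or cap and leave the finished particle. All 7 had negative values in siEXOSC3, with a median of −0.12, and 3 fell (42.9%, against 15.7% of all genes). Without siEXOSC3 replicate 3, 2 of the 7 were positive. With median centring, without scramble replicate 1 or with GC content and length trends removed, 1 was positive. The median ran from −0.09 with median centring to −0.19 with those trends removed. Psmd5, a chaperone of the 19S base, measured 41.3, 39.6 and 39.9 FPKM in scramble and 31.1, 33.8 and 25.9 FPKM in siEXOSC3. Psmg3, a chaperone of the alpha ring, measured 26.6, 24.0 and 28.7 FPKM in scramble and 19.04, 23.1 and 14.5 FPKM in siEXOSC3. Both were separated, and the siEXOSC3 libraries of Psmg3 spread more widely than its controls. Psmd5 fell by 0.41 on the log2 scale (SE 0.10, limma adjusted p = 0.0143) and Psmg3 by 0.48 (SE 0.15, adjusted p = 0.0380). The base chaperone Psmd10 (gankyrin) fell to 83.6% of scramble (limma adjusted p = 0.0369). With 1 of the 6 libraries left out in turn, the Psmd5 call was lost in 2 fits (scramble replicate 1 or 3) and the Psmg3 and Psmd10 calls in 4 each (siEXOSC3 replicate 1 or any scramble library).

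In the 20S core Psma5 and Psmb3 fell, 2 of 14 subunits (14.3%, against 15.7% of all genes called lower), and 3 of the 14 were separated below, where 25.9% of all genes were. The class median was −0.09 (−0.03 without siEXOSC3 replicate 3 and −0.05 without scramble replicate 1) and the values ran from −0.35 (Psmb3) to 0.04 (Psma3). Psmb3, a beta subunit without an active site, measured 387, 353 and 373 FPKM in scramble and 323, 285 and 269 FPKM in siEXOSC3. Psma5, an alpha subunit, measured 166, 157 and 153 FPKM in scramble and 141, 134 and 116 FPKM in siEXOSC3. Both genes lay wholly below scramble. The log2 fold changes were −0.35 (SE 0.08, limma adjusted p = 0.0163) for Psmb3 and −0.29 (SE 0.09, adjusted p = 0.0329) for Psma5.

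The catalytic subunits overlapped scramble in siEXOSC3. The trypsin-like Psmb7 measured 391, 368 and 349 FPKM in scramble and 362, 340 and 324 FPKM in siEXOSC3. The caspase-like Psmb6 measured 145, 150 and 154 FPKM in scramble and 155, 153 and 141 FPKM in siEXOSC3. Psmb5 measured 107, 91.7 and 96.7 FPKM in scramble and 96.6, 96.9 and 74.7 FPKM in siEXOSC3. None passed the test (limma adjusted p between 0.277 and 0.958), and the third siEXOSC3 library held the lowest value of each.

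The immunosubunits were not called in siEXOSC3 either, with only Psmb10 at an unadjusted p under 0.05 in limma. Psmb10 was called lower without siEXOSC3 replicate 2 (limma adjusted p = 0.00942) and with GC content and length trends removed (adjusted p = 0.0417). Psmb8 measured 27.5, 26.9 and 26.2 FPKM in scramble and 30.8, 25.6 and 25.7 FPKM in siEXOSC3. Psmb10 measured 11.7, 10.3 and 12.04 FPKM in scramble and 8.74, 10.9 and 8.16 FPKM in siEXOSC3, a difference of −0.27 with a limma adjusted p of 0.0885. Psmb9 measured 3.01, 1.87 and 1.88 FPKM in scramble and 2.39, 2.30 and 1.099 FPKM in siEXOSC3, and at this level its libraries overlapped. Psmb9 overlaps Tap1, which was not called.

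The activators open the 20S core in place of the 19S cap, and none was called in siEXOSC3 (1, Psme3, at an unadjusted p under 0.05 in limma, and called lower without siEXOSC3 replicate 2 with an adjusted p of 0.0231). Psme1 (PA28 alpha) measured 102, 96.4 and 92.6 FPKM in scramble and 101, 102 and 116 FPKM in siEXOSC3, and its partner Psme2 (PA28 beta) measured 121, 118 and 123 FPKM in scramble and 130, 133 and 115 FPKM in siEXOSC3. Both overlapped. The nuclear activator Psme3 (PA28 gamma) measured 148, 134 and 152 FPKM in scramble and 124, 138 and 116 FPKM in siEXOSC3 (log2 fold change −0.20, limma adjusted p = 0.0990), and Psme4 (PA200) measured 78.3, 72.6 and 73.6 FPKM in scramble and 71.8, 70.4 and 73.7 FPKM in siEXOSC3. The groups of these 2 genes overlapped as well. Psmf1 (PI31), a protein that binds the core and is known as an inhibitor in vitro, measured 12.7, 11.2 and 12.6 FPKM in scramble and 9.80, 10.9 and 8.84 FPKM in siEXOSC3. It fell by 0.28 on the log2 scale (SE 0.09, limma adjusted p = 0.0463), the highest adjusted p of the 12 calls. The calls of Psmf1 and Psmd10 were also lost in 6 of the 9 other alternatives, including median centring and removal of GC content and length trends.

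The siEXOSC3 libraries did not move equally. The median difference of the 47 genes from the scramble mean was −0.10, −0.09 and −0.24 in replicates 1, 2 and 3. For the cap it was −0.20, −0.11 and −0.31, and for the core −0.01, −0.03 and −0.18. The cap was thus below scramble in each library, while the core was near it in 2 of the 3. Over all genes tested the medians lay between −0.02 and −0.01. The summed FPKM over all genes was 779283, 739880 and 703369 in siEXOSC3 replicates 1, 2 and 3. In the scramble libraries of that table it was between 701163 and 751675. Whether these sums bear on the values was not tested.

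**Figure D3:**
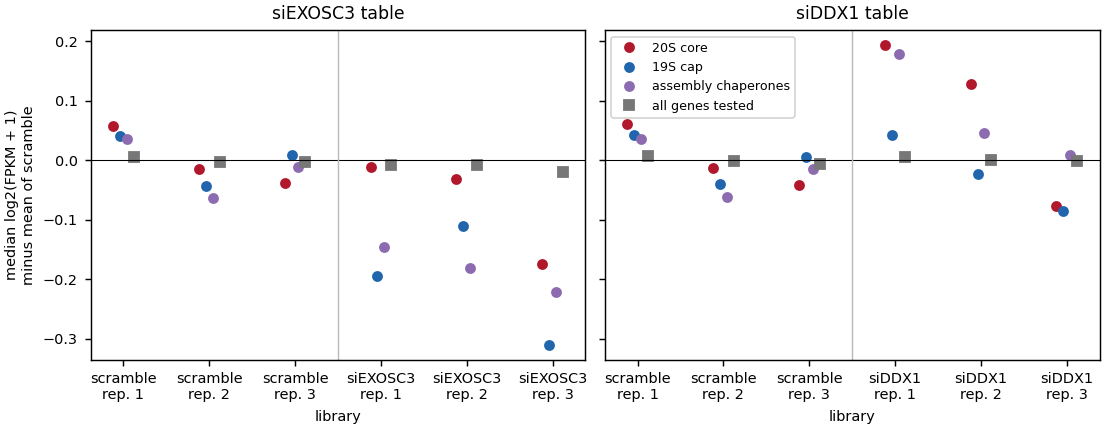
Median difference of log2(FPKM + 1) from the scramble mean in each library, for the 20S core, the 19S cap, the assembly chaperones and all genes tested, with the siEXOSC3 table on the left and the siDDX1 table on the right. The cap is lowest in the third siEXOSC3 library (−0.31), and the core is high in the first and second siDDX1 libraries (0.19 and 0.13) and low in the third (−0.08).

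Depletion of DDX1 left most proteasome genes uncalled. Psmd1 rose (2.13% of the 47, against 5.61% of all genes called higher) and Psmd5 fell (2.13% against 5.03% called lower), where 10.6% of all genes were called in either direction, and 8 members were at an unadjusted p under 0.05 in limma. The median fold change was 0.01, with 28 values positive and 19 negative, though with quantile normalization 17 were positive and 30 negative. The groups were separated for 5 members above and 7 below, and 17% and 17.8% of all genes were separated in those directions. The summed endothelial markers were at 5.04 to 5.77 FPKM in siDDX1 against 4.08 to 4.69 in scramble, and the glial markers at 3.16 to 3.47 against 2.59 to 3.07, with Kdr and the astrocyte channel Aqp4 listed at 0. Their part in these results was not tested.

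Psmd1 measured 78.3, 73.6 and 79.0 FPKM in scramble and 102, 99.7 and 100.3 FPKM in siDDX1, and Psmd5 measured 40.9, 39.3 and 39.5 FPKM in scramble and 29.6, 30.0 and 31.4 FPKM in siDDX1. Both were separated by more than the spread of either group, and the 3 siDDX1 libraries lay close together. Psmd1 reached 131% ± 1.24 of its control level, a log2 fold change of 0.38 (SE 0.06, limma adjusted p = 0.00822), and Psmd5 dropped to 76.1% ± 2.47, a log2 fold change of −0.38 (SE 0.06, adjusted p = 0.00847). Psmd1 kept its call in every alternative run, and Psmd5 lost it without scramble replicate 1 or 3. Armc9, which overlaps Psmd1, was again lower, at 5.61 ± 0.533 FPKM against 8.54 ± 0.112 (log2 fold change −0.53, limma adjusted p = 0.0101).

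**Figure D4:**
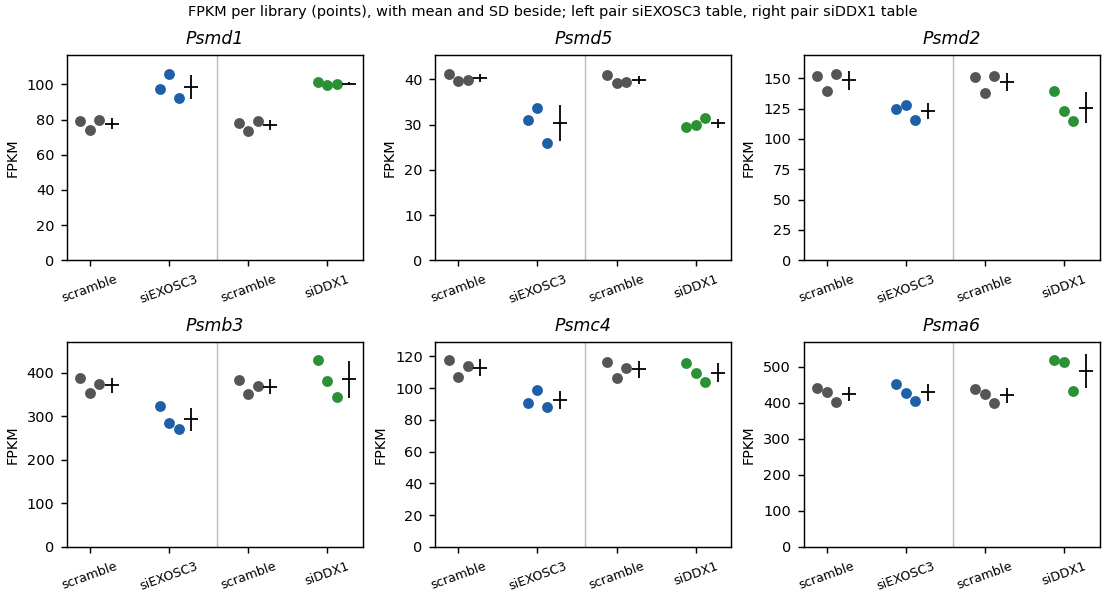
FPKM in every library for 6 proteasome genes, with the mean and SD to the right of each group, scramble in grey, siEXOSC3 in blue and siDDX1 in green. Psmd1 is above and Psmd5 below scramble in all libraries of both knockdowns, Psmd2, Psmb3 and Psmc4 are separated from scramble in siEXOSC3 only, and Psma6 overlaps scramble in both.

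The 20S core had 13 of 14 values above 0 in siDDX1, with a median of 0.10 and none called (2 at an unadjusted p under 0.05 in limma), but with quantile normalization 8 of 14 were positive and the median was 0.01. The median was 0.04 without siDDX1 replicate 1 and 0.065 without scramble replicate 3. Only Psma1 was negative, at −0.15. The core followed the library: its median difference from scramble was 0.19 and 0.13 in replicates 1 and 2 and −0.08 in replicate 3. The medians of all genes tested lay between −0.002 and 0.005 in these libraries. Replicate 3 also had a lower summed FPKM than the first and second libraries and lay within the range of the scramble sums. In the first library 13 of the 14 core subunits lay above the scramble range, in the second 10, and in the third 1 lay above and 7 below. Of all 11104 genes tested, 4262, 4113 and 3785 lay above the range in these libraries, and 3822 lay below it in the third. Without siDDX1 replicate 3 the members called rose to 8 higher (Psma6, Psmb1, Psmb4, Psmb6, Psmb7, Psmc5, Psmd1 and Psmg4) and 3 lower (Psmc3ip, Psmc6 and Psmd5), and the calls over all genes rose to 16.4% higher and 15.4% lower. Whether the difference in summed FPKM between the siDDX1 libraries bears on these values was not tested.

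The catalytic subunits show this spread. Psmb7 measured 388, 365 and 345 FPKM in scramble and 443, 410 and 337 FPKM in siDDX1, Psmb6 measured 144, 149 and 152 FPKM in scramble and 175, 163 and 151 FPKM in siDDX1, and Psmb5 measured 106, 90.9 and 95.6 FPKM in scramble and 116, 106 and 94.8 FPKM in siDDX1. In each the third siDDX1 library lay within or below the scramble range. None was called (limma adjusted p between 0.246 and 0.529).

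The immunosubunits were also uncalled in siDDX1. Psmb8 measured 27.3, 26.7 and 25.9 FPKM in scramble and 29.6, 25.3 and 25.6 FPKM in siDDX1, Psmb9 measured 2.99, 1.85 and 1.86 FPKM in scramble and 1.48, 2.204 and 1.58 FPKM in siDDX1, and Psmb10 measured 11.6, 10.2 and 11.9 FPKM in scramble and 12.2, 11.4 and 12.7 FPKM in siDDX1. All 3 overlapped scramble. Psmb8 was 25.5% ± 1.64 of Psmb5 in siDDX1 and 30.9% ± 4.07 in siEXOSC3, beside the 27.4% of scramble.

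In the cap 6 of the 17 siDDX1 values were positive and only Psmd1 was called (5.88%, against 5.61% of all genes called higher). The median was −0.02, which turned to 0.004 with median centring and went to −0.08 with quantile normalization, where 3 of 17 were positive and Psmc6 and Psmd2 were called lower. Without siDDX1 replicate 3 or scramble replicate 1, 10 of the 17 were positive, with medians of 0.011 and 0.002. The median was −0.06 without siDDX1 replicate 1. The ATPase Psmc5 stood at 118% ± 6.77 of scramble and the ATPase Psmc6 at 88.2% ± 3.78, both separated from scramble and neither called in the comparison as reported (limma adjusted p = 0.0755 and 0.1003). Psmd2 was at 85.6% ± 8.48 (limma adjusted p = 0.111), and Psmd1 was 80.3% ± 7.20 of Psmd2, as against 52.4% in scramble. Among the chaperones Psmg1, a partner of Psmg2 in alpha ring assembly, was at 120% ± 9.08 and separated above (limma adjusted p = 0.0746), and Psmg3 was at 100.2% ± 13.8.

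The activators were close to scramble in siDDX1. Psme1 measured 101, 95.7 and 91.6 FPKM in scramble and 106, 89.8 and 94.8 FPKM in siDDX1, and Psme2 measured 120, 117 and 122 FPKM in scramble and 125, 111 and 125 FPKM in siDDX1. Psme3 measured 147, 133 and 150.2 FPKM in scramble and 142, 135 and 171 FPKM in siDDX1, with its highest value in the third library. Psme4 measured 77.7, 72.1 and 72.7 FPKM in scramble and 68.5, 71.4 and 68.6 FPKM in siDDX1. Psme4 alone was separated, below scramble, without a call (limma adjusted p = 0.313).

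Side by side, 40 of the 47 genes had a lower log2 fold change in siEXOSC3 than in siDDX1. The same count was not made over all genes. Of the 47 values, 8 were positive in siEXOSC3 and 28 in siDDX1, and with quantile normalization 8 and 17 were. Both comparisons use the same scramble libraries and the tables were normalized separately, so the difference between the knockdowns was not tested. Psmb3 stood at 78.8% of scramble in siEXOSC3 and 105% in siDDX1, Psma5 at 82.0% and 101%, Psmg3 at 71.5% and 100.2%, and Psmc4 at 82.0% and 98.1%. Psmd2 stood at 82.7% and 85.6%, and Psmf1 at 81.0% and 88.7%. Psmd1 (127% and 131%) and Psmd5 (75.2% and 76.1%) were alike in size.

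A further 40 genes of the ubiquitin-proteasome pathway were examined in 4 lists, of which 38 were tested in each table. In siEXOSC3 7 fell (18.4%, against 15.7% of all genes) and 1 rose (2.63% against 16.7%). In the list of 15 ubiquitin supply and shuttle genes 10 values were positive, the median was 0.02, and 3 fell (20%, against 15.7% of all genes). These 3 belong to the p97 complex, which extracts tagged proteins and hands them to the proteasome. Vcp, the ATPase, fell to 147 ± 3.55 FPKM (SD, n = 3) from 181 ± 4.37 (log2 fold change −0.30, limma adjusted p = 0.00791), and its cofactors Ufd1l (−0.42, adjusted p = 0.00955) and Nploc4 (−0.35, adjusted p = 0.0109) fell as well. The shuttle factor Ubqln2 was outside the 3 largest changes of its list and is named here because it was the only rise (0.23, limma adjusted p = 0.0377). Of the 8 other subunits and docked proteins tested, all had negative values with a median of −0.17, and the ubiquitin receptor Adrm1 (−0.23) and the deubiquitinase Usp14 (−0.20) fell (limma adjusted p = 0.0409 and 0.0366). Of the regulators of proteasome genes, the protease Ddi2, which activates NRF1, fell by 0.29 on the log2 scale (limma adjusted p = 0.0224), and Nfe2l1 itself was at 125 ± 6.21 FPKM against 121 ± 10.1 (adjusted p = 0.658). Of the antigen processing genes, the peptidase Erap1 fell by 0.27 (limma adjusted p = 0.0361).

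In siDDX1 3 of the 38 fell (7.89%, against 5.03% of all genes) and 1 rose (2.63% against 5.61%). The MHC class I light chain B2m, at 310.0 ± 11.4 FPKM against 411 ± 1.83, fell by 0.41 (limma adjusted p = 0.0101), and Tapbp (tapasin), which loads peptides onto MHC class I, by 0.41 (adjusted p = 0.0110). Nploc4 fell by 0.24 (limma adjusted p = 0.0488).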

How the data were processed

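Total RNA of 9 N2A cultures was rRNA-depleted and sequenced with a kit that does not mark strand. Per the labels and submitters' notes, the authors aligned reads to mm9 with TopHat2 2.1.0 and used SAMtools and Cuffdiff 2.2.1. The deposited values are FPKM per gene and library, in 2 tables normalized separately. The gene annotation and the library normalization are not given in the sources used here. Within each table, log2(FPKM + 1) of genes with a mean of at least 1 FPKM over its 6 libraries was tested in limma 3.58.1 (R 4.3.3), as a linear model with two-sided moderated tests and a prior variance that follows mean intensity, with Benjamini-Hochberg adjustment over all genes tested. The pseudocount understates changes of low genes. The script was tested on simulated data. No count test was run, since the tables hold FPKM and the reads obtained per library are not given in the sources used here, which state a targeted depth only. All libraries are printed for called members (at most the 8 largest rises and 8 largest falls) and for catalytic and immunosubunits and activators, and at most 3 called genes per pathway list and comparison are named, by fold change or mean. Members and lists were chosen with earlier results of these data known. Gene positions are from GENCODE vM1 (NCBIM37), and 20775 of 24318 symbols matched. Promoters are from RefSeq (GRCm38.p6), and 38 of the 45 matched a GENCODE transcript sequence on the gene strand. The annotation holds 3 pseudogenes named after Psmb5, Psmb6 and Psmb7, whose reads may be shared. Alternatives were another pseudocount, filter, scaling, threshold, no intensity trend, a replicate block, each library left out and, chosen after seeing the data, removal of GC content and length trends. Values of some pathway and marker genes are not reported here.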

Additional observations from a re-analysis of the deposited data

Results flagged for a closer look

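In 3 genes every siEXOSC3 library lay below the scramble mean and every siDDX1 library above it. The log2 fold changes were −0.27 in siEXOSC3 and 0.10 in siDDX1 for the immunosubunit Psmb10, −0.21 and 0.0125 for the lid subunit Psmd6, and −0.0902 and 0.13 for the base chaperone Psmd9. None of these changes was called by limma in the comparison as reported, though Psmb10 was called lower in siEXOSC3 without siEXOSC3 replicate 2 and with GC content and length trends removed, and the difference between the knockdowns was not tested.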

How the results depend on the processing

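Depletion of both targets and the single rise (Psmd1) in siEXOSC3 kept their direction and their side of the threshold, and the median fold change of the proteasome genes in siEXOSC3 stayed negative, in every alternative that gave a value. The siDDX1 median, 0.01, was −0.035 with quantile normalization, −0.03 without siDDX1 replicate 1, −0.004 without scramble replicate 3 and −0.003 with GC content and length trends removed. The 12 falls in siEXOSC3 became 7 without the filter on low FPKM, 4 with the replicate block, 0 at an adjusted p under 0.01 (20 at an unadjusted p under 0.05 in limma) and 0 to 19 when 1 library was left out. The share of all genes called lower, 15.7% as reported, was 7.63% without the filter and 9.42% with the block. It was 5.17% to 22.3% when 1 library was left out. In siDDX1 the 1 rise became 3 with the replicate block (Psmc5, Psmd1 and Psmg1) and 1 to 8 with a library left out, and the 1 fall became 4 with quantile normalization (Psma1, Psmc6, Psmd2 and Psmd5) and 0 to 3 with a library left out. Of all genes in siDDX1, 9.77% were called higher with the block and 5.16% lower with quantile normalization. With a library left out, 0.856% to 16.4% were called higher and 0.522% to 15.4% lower. Of the pathway genes in siEXOSC3, the 1 rise became 2 with a minimum of 5 FPKM, quantile normalization or median centring, 0 without the intensity trend, with the replicate block or at 0.01, and 0 to 3 with a library left out, and the 7 falls became 3 with the replicate block, 2 at 0.01 and 2 to 10 with a library left out. In siDDX1 the 1 pathway rise became 0 without the filter, with quantile normalization, without the intensity trend or at 0.01, 3 with the replicate block and 0 to 8 with a library left out, and the 3 falls became 0 at 0.01 and 0 to 6 with a library left out. At an unadjusted p under 0.05, 2 pathway genes were higher in siEXOSC3 and 2 higher and 6 lower in siDDX1 in limma. Changes of sign were followed gene by gene only for called members, the catalytic and immunosubunits and the activators Psme1 to Psme4. Among these, uncalled values that changed sign with a shift larger than their standard error were Psmb8 (−0.066 without siEXOSC3 replicate 1, and −0.066 to 0.062 over the libraries left out) and Psmb9 (0.058 without siEXOSC3 replicate 3, and −0.288 to 0.058) in siEXOSC3, and in siDDX1 Psmb5 (−0.003 with GC content and length trends removed), Psme2 (−0.06 with quantile normalization) and Psme3 (−0.054 without siDDX1 replicate 3, and −0.054 to 0.116). Smaller changes of sign among these genes were seen in Psmb6 in siEXOSC3 and in Psmb8 and Psme1, and under other settings Psme2 and Psme3, in siDDX1. Other members changed sign too. Of the 47, 28 were positive in siDDX1 as reported, 17 with quantile normalization and 34 without scramble replicate 1. In siEXOSC3 8 were positive as reported and 13 without siEXOSC3 replicate 3. The cause of these changes was not tested. Deviations of same-numbered libraries correlated at 0.035, −0.31 and −0.126 in siEXOSC3 and −0.012, 0.379 and 0.372 in siDDX1. Those of differently numbered libraries ran from −0.173 to 0.259 in siEXOSC3 and from −0.376 to 0.153 in siDDX1. Whether the replicate numbers pair the libraries was not tested. Without read depth, no counting error can be given.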
